A study of Mus musculus with 9 samples.

Results

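The genes described here are 9 genes of the ileal route of bile acids: Slc10a2, Fabp6, Slc51a, Slc51b, Fgf15, Nr1h4, Nr0b2, Abcc2 and Abcc3. They were chosen by symbol, and all 9 were found among the 46095 gene symbols of the deposited count table. Of these, 8 passed the filter on low counts and were tested, and Nr0b2 did not pass. RNA was sequenced from intestinal epithelial cells (IECs) that had been released from mouse colon with EDTA. One group, Smad4-knockout (n = 4), lacked Smad4 in the intestinal epithelium. The other, named DDKO in the sample titles and Smad4-knockout;Setd2-knockout in the genotype label (n = 5), lacked both Smad4 and Setd2 there. Per the study's methods, the floxed genes were deleted with Villin-Cre, which acts in the epithelium along the intestine, in mice kept on the C57BL/6j background. Both groups received the carcinogen azoxymethane (AOM, 10 mg/kg) at 8 weeks of age and then 2% dextran sodium sulphate (DSS), an agent that damages the lining of the colon, and were sampled at 10 days. No group with intact Smad4, no untreated group and no ileum was analysed here. Every comparison is thus between treated, Smad4-deleted colon with and without Setd2. The groups also differed in Y-linked counts, given below, so that genotype and sex are partly confounded.

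Bile acids are made in the liver, secreted into the gut and recovered mainly in the ileum. There SLC10A2 takes them up at the brush border, FABP6 binds them in the cytosol, and the heterodimer of SLC51A and SLC51B exports them at the basolateral side. Inside the cell they activate the nuclear receptor FXR (Nr1h4), which pairs with RXR and induces Fabp6, Slc51a, Slc51b, the hormone Fgf15 and the corepressor Nr0b2. FGF15 travels to the liver and represses bile acid synthesis there. ABCC2 and ABCC3 are exporters of conjugated organic anions, at the apical and the basolateral membrane respectively. In the adult mouse, Slc10a2 and Fabp6 are typical of the distal small intestine, whereas Abcc3 is strongly expressed in the colon.

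On GRCm38 the annotated genes lie apart from each other, on 8 chromosomes. On the minus strand lie Slc10a2 at chr8:5083219-5105351, Fabp6 at chr11:43596049-43601540, Slc51a at chr16:32474504-32487879, Slc51b at chr9:65412714-65422955, Nr1h4 at chr10:89454234-89533585 and Abcc3 at chr11:94343295-94392997. On the plus strand lie Fgf15 at chr7:144896531-144900953, Nr0b2 at chr4:133553376-133556536 and Abcc2 at chr19:43782192-43840740.

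The bases upstream of Fabp6, the cytosolic carrier and a gene that FXR is known to induce, are shown first, because this gene was higher in DDKO and its sequence held matches to a binding motif of nuclear receptors. They come from RefSeq promoter sequences (GRCm38.p6), which matched 7 of the 9 genes (all but Fgf15 and Abcc3), and are written 5′ to 3′ on the minus strand, at chr11:43601563-43601812. Capitals mark matches, on either strand and with at most 2 mismatches, to an inverted repeat of the nuclear receptor half-site AGGTCA with 1 free base between the copies (IR-1).
Fabp6: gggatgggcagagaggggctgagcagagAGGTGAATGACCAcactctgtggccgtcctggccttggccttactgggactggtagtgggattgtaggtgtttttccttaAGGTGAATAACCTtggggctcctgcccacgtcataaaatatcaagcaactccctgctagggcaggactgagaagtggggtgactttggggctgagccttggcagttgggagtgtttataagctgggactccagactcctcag

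The Fabp6 sequence held 2 IR-1-like matches with 2 mismatches each, beginning 222 and 142 bases before the RefSeq start, which differs from the end of the annotated span given above. Of the 7 windows, that of Fabp6 was the 1 with an IR-1-like match. Such a match was present in 0.959% of the 250-base windows before 32851 RefSeq gene starts. Nr1h4, the receptor that was not called, held a match to the direct repeat of AGGTCA with 1 free base (DR-1, present in 3.24% of windows) and one to the GATA motif AGATAA (9.99%). The stretch around its DR-1-like match, in capitals, lies at chr10:89506859-89506887 on the minus strand, before the RefSeq start used here but inside the wider annotated span of the gene, and outside its annotated exons.
Nr1h4: catccgtgTGGCATTTGACCTccagccag

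A match is a description of the letters only, and no binding data were analysed here.

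The targeted gene was checked first. Setd2 was at 113 ± 9.45 CPM (the usual per-library scale of read counts, here with TMM-normalized library sizes; mean ± SD) in Smad4-knockout and 66.1 ± 14.7 in DDKO libraries, with every DDKO library below every Smad4-knockout library (log2 fold change -0.77 ± 0.14 SE, adjusted p = 0.00756). Smad4, deleted in both groups, was at 64.2 ± 19.0 and 70.3 ± 34.4 CPM (adjusted p = 0.819). The total count was 12487129 to 17120202 in Smad4-knockout and 12729533 to 14637157 in DDKO libraries, so that 1 count was worth 0.0594 to 0.0794 CPM. DDKO replicates 1, 2 and 5 held 4907, 4745 and 3857 counts of Y-linked genes against 0 to 28 in the other 6 libraries. The X-linked gene Xist had 5, 6 and 5 counts in these DDKO libraries and 17833 to 26617 in the other 6. By these genes DDKO replicates 1, 2 and 5 read as male and the other 6 libraries, with every Smad4-knockout library, as female. The other 6 are called libraries without Y-linked counts below. The labels give no collection dates. The 6 epithelial markers were abundant in all libraries and none was called different, with Epcam at 1920 ± 37.6 and 1928 ± 93.0 CPM.

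Of the 9 genes, 6 were higher in DDKO IECs, namely Slc10a2, Fabp6, Slc51a, Slc51b, Fgf15 and Abcc2. Abcc3 was lower, Nr1h4 was not called, and Nr0b2 had too few counts to enter the test. Over all 14593 genes tested, 6.76% were called higher and 6.54% lower at an adjusted p under 0.05, that is 13.3% in either direction. For the 6 genes called higher, every DDKO library lay above every Smad4-knockout library, an arrangement seen in 8.34% of all tested genes. These genes were picked by their call, which favours such an arrangement, so that it adds no support. The same holds for the separation of Abcc3 below. The median log2 fold change of the 8 tested genes was 2.59, beside -0.0006 over all tested genes. In whole-population RNA, more cells of a type and more RNA per cell cannot be told apart, and this holds for every level below.

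**Figure D1:**
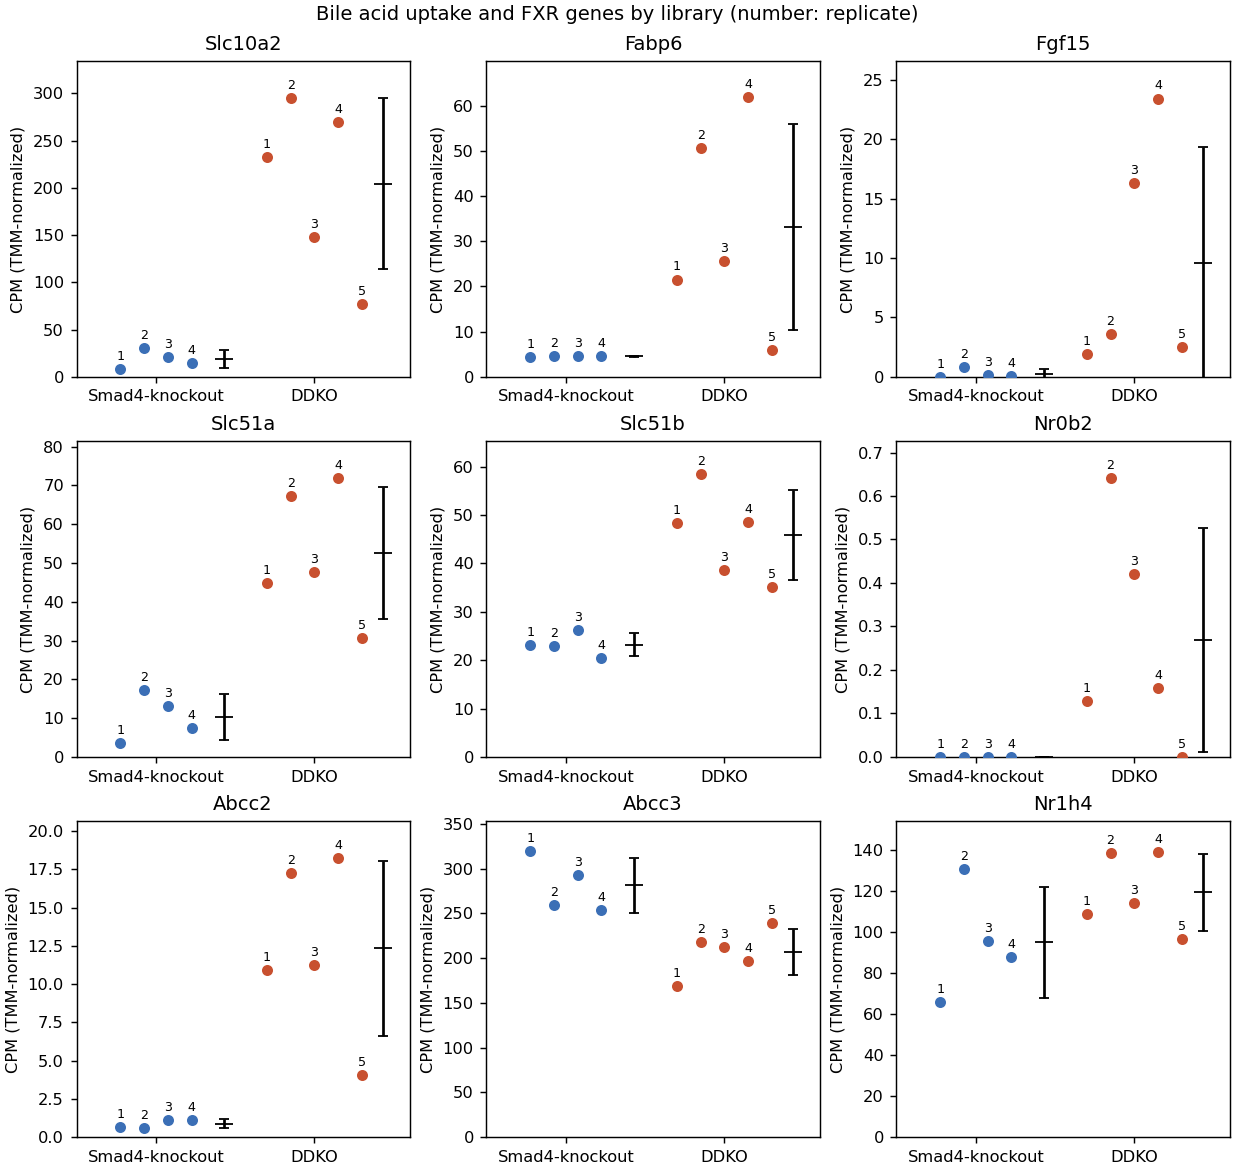
TMM-normalized CPM (y axis, linear, from 0) of the 9 genes in each Smad4-knockout (blue) and DDKO (red) library, numbered by replicate, with the mean and SD of each group in black. Bars that would pass below 0 stop at the axis. Slc10a2 sits between 7.89 and 30.1 CPM in Smad4-knockout and between 76.6 and 295 CPM in DDKO libraries, whereas the groups overlap for Nr1h4.

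Uptake and binding genes showed large differences. Slc10a2, the sodium-dependent carrier that brings bile acids into the enterocyte, was at 7.89, 30.1, 21.1 and 14.8 CPM in Smad4-knockout replicates 1 to 4. In DDKO replicates 1 to 5 it was at 232, 295, 148, 270 and 76.6 CPM. The lowest DDKO library was above the highest Smad4-knockout library, and within each group the highest library exceeded the lowest by more than 3-fold. The means were 18.5 ± 9.45 and 204 ± 90.5 CPM, a fitted difference of 11.0-fold (log2 fold change 3.46 ± 0.46 SE, adjusted p = 0.00141).

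Fabp6, the cytosolic bile acid binding protein, was nearly constant in Smad4-knockout IECs, at 4.43, 4.69, 4.67 and 4.60 CPM. In DDKO IECs it was at 21.5, 50.7, 25.5, 61.8 and 5.89 CPM. DDKO replicate 5 thus stood only just above the Smad4-knockout libraries, while the other 4 were well above them. The spread of Fabp6 in DDKO was 10.5-fold from lowest to highest, against 1.06-fold in Smad4-knockout. The fitted difference was 7.18-fold (log2 fold change 2.84 ± 0.55 SE, adjusted p = 0.00857).

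Both subunits of the basolateral exporter were higher in DDKO, but by unequal amounts. Slc51a, which encodes the alpha subunit, was at 3.53, 17.2, 13.1 and 7.54 CPM in Smad4-knockout and 44.8, 67.3, 47.6, 72.0 and 30.6 CPM in DDKO. Slc51b, which encodes the beta subunit, was at 23.2, 23.0, 26.3 and 20.4 CPM in Smad4-knockout and 48.5, 58.6, 38.7, 48.6 and 35.1 CPM in DDKO. The groups did not overlap for either gene, and Slc51b was the more even of the pair across libraries. Slc51a was 5.05-fold higher (log2 fold change 2.34 ± 0.40 SE, adjusted p = 0.00509) and Slc51b 1.97-fold higher (0.98 ± 0.15, adjusted p = 0.00283). Each of these genes overlaps a gene on the opposite strand, Slc51a with Pcyt1a and Slc51b with Rasl12, and whether the counting used strand is not stated.

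The difference between the subunits was tested on the ratio of their counts within each library, which no normalization changes. The ratio of Slc51a to Slc51b was 0.153, 0.747, 0.498 and 0.371 in Smad4-knockout and 0.925, 1.15, 1.23, 1.48 and 0.872 in DDKO libraries. Every DDKO ratio was above every Smad4-knockout ratio. The mean log2 ratio moved from -1.39 ± 0.97 to 0.15 ± 0.31, a difference of 1.54 (two-sided exact permutation p = 0.00794, the smallest that 4 against 5 libraries allow, and 0.0119 adjusted over 3 ratios).

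The other exporters went in opposite directions. Abcc2, the apical conjugate exporter, was barely detected in Smad4-knockout IECs, at 0.642, 0.594, 1.11 and 1.11 CPM (10 to 18 counts). In DDKO it was at 10.9, 17.3, 11.3, 18.2 and 4.03 CPM (52 to 243 counts). All DDKO libraries were above all Smad4-knockout libraries, with replicate 5 the lowest of them. The fitted difference was 14.3-fold (log2 fold change 3.84 ± 0.45 SE, adjusted p = 0.000823).

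Abcc3, the basolateral exporter and the member with the most counts in every Smad4-knockout library, was at 320, 259, 293 and 254 CPM in Smad4-knockout and 169, 218, 212, 197 and 239 CPM in DDKO. Every DDKO library was below every Smad4-knockout library, as in 8.87% of tested genes, though DDKO replicate 5 and Smad4-knockout replicate 4 lay close together. Abcc3 fell to 73.6% of its Smad4-knockout level (log2 fold change -0.44 ± 0.11 SE, adjusted p = 0.0245). This call was lost without Smad4-knockout replicate 1 (adjusted p = 0.0758) or 3 (0.0792) or DDKO replicate 4 (0.0583), and with a term for Y-linked counts (0.0844), while the log2 fold change stayed between -0.49 and -0.37 under all alternatives. The ratio of Abcc2 to Abcc3 counts was 0.00211 to 0.00453 in Smad4-knockout and 0.0170 to 0.0926 in DDKO libraries. On the log2 scale this ratio differed by 4.12 (two-sided exact permutation p = 0.00794, adjusted 0.0119).

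By contrast, the ratio of Slc10a2 to Fabp6 overlapped between the groups. It was 1.78, 6.38, 4.50 and 3.21 in Smad4-knockout and 10.8, 5.81, 5.80, 4.37 and 12.9 in DDKO libraries. The highest ratios were those of DDKO replicates 5 and 1, where Fabp6 was lowest within the group. The mean log2 ratio was 1.03 higher in DDKO (two-sided exact permutation p = 0.0952, adjusted 0.0952), which did not pass the threshold.

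**Figure D2:**
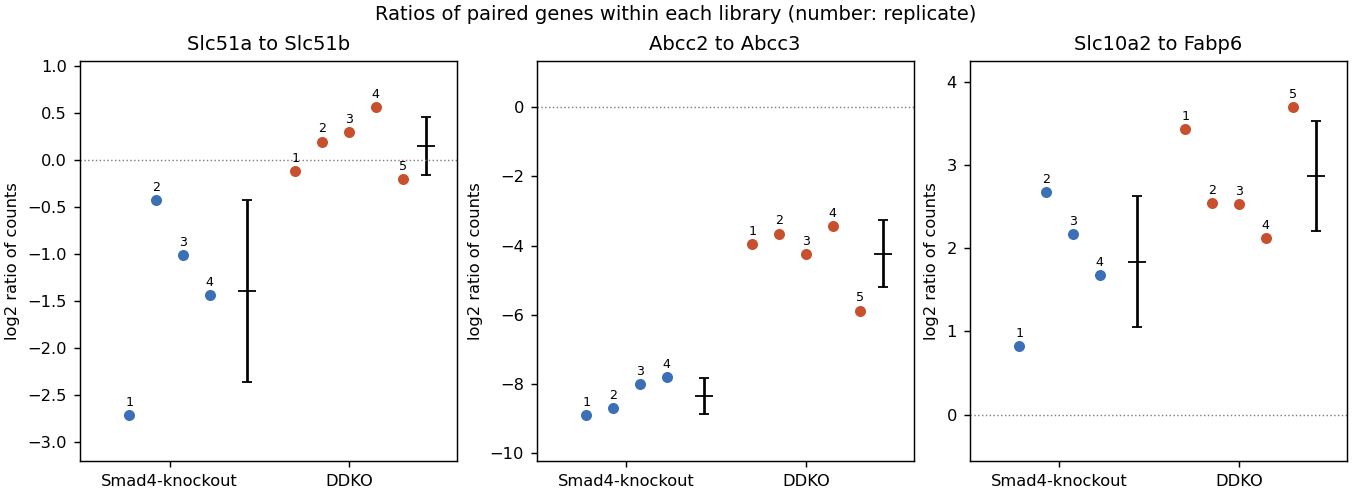
Log2 ratio of the counts of paired genes in each library (y axis; 0.5 counts added), numbered by replicate, for Smad4-knockout (blue) and DDKO (red), with group mean and SD in black and a dotted line at equal counts. The groups separate for Slc51a to Slc51b and for Abcc2 to Abcc3, and overlap for Slc10a2 to Fabp6.

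No difference was detected for the receptor itself. Nr1h4, which encodes FXR, was at 65.7, 131, 95.5 and 87.6 CPM in Smad4-knockout and 109, 138, 114, 139 and 96.6 CPM in DDKO. The groups overlapped, with Smad4-knockout replicate 2 above 3 of the 5 DDKO libraries. The log2 fold change was 0.33 ± 0.18 SE with an adjusted p of 0.240, and none of the alternatives brought it under 0.05. Rxra, its partner, was at 96.3 ± 4.06 and 114 ± 8.69 CPM, with every DDKO library above every Smad4-knockout library, but its adjusted p of 0.0587 missed the threshold. It passed in 4 of 19 alternatives, DESeq2 among them (lowest adjusted p = 0.0173).

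Among the FXR target genes, Fgf15, the ileal hormone that signals to the liver, showed the largest fold change of the 8 tested genes and also the widest spread. It had 0, 14, 3 and 1 counts in Smad4-knockout and 30, 51, 234, 298 and 32 counts in DDKO libraries. In CPM this was at most 0.832 in Smad4-knockout and 1.92, 3.63, 16.4, 23.4 and 2.48 in DDKO. Fgf15 thus passed the filter on low counts through the DDKO libraries, and its call and rank are conditional on that. Where at least 10 counts were required in every library it was not tested, and 5 members were called higher. DDKO replicates 3 and 4 stood far above the other 3, and these are the DDKO libraries without high Y-linked counts. The log2 fold change was 5.01 ± 1.06 SE (adjusted p = 0.0131). With a term for Y-linked counts it was 6.06 (adjusted p = 0.000572), and in the 6 libraries without such counts also 6.06 (adjusted p = 0.0002). Single libraries moved the log2 fold change, to 6.60 without Smad4-knockout replicate 2 and 4.38 without DDKO replicate 4, and without Smad4-knockout replicate 3 the adjusted p was 0.0524. The part of the Y-linked difference between libraries in this result was not tested further.

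Fgf15 overlaps 2 antisense genes, Gm26793 and Gm39119, whose reads cannot be told apart from its own where strand was not used. The study's RT-qPCR primers for Fgf15, shown because they mark a stretch of the spliced transcript itself, span bases 149 to 257 of the 1810-base transcript Fgf15-201, a product of 109 bases. Their values were not analysed here.
Fgf15 forward: ATGGCGAGAAAGTGGAACGG
Fgf15 reverse: CTGACACAGACTGGGATTGCT

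Nr0b2, which encodes the corepressor SHP, was at the limit of detection. It had 0 counts in all 4 Smad4-knockout libraries and 2, 9, 6, 2 and 0 counts in DDKO replicates 1 to 5. The DDKO mean of 0.269 CPM rested mainly on replicates 2 and 3, and the other 3 libraries had at most 2 counts. It did not pass the filter on low counts, and without that filter it was not called.

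**Figure D3:**
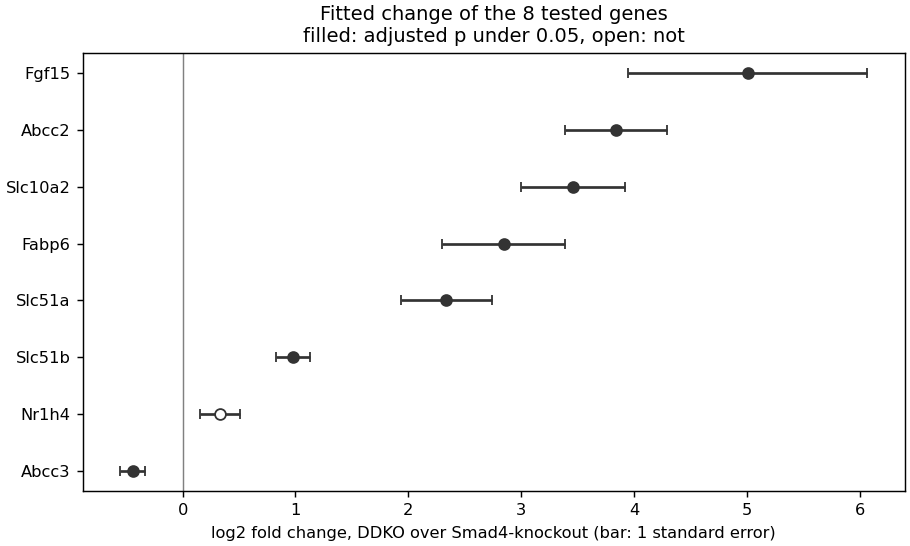
Fitted log2 fold change, DDKO over Smad4-knockout (x axis), of the 8 tested genes, with bars of 1 standard error; filled points have an adjusted p under 0.05 and the open point does not. The genes run from Fgf15 at 5.01 to Abcc3 at -0.44, with Nr1h4 at 0.33.

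Levels can be compared between genes only per length, here as CPM per kilobase of annotated exon. In Smad4-knockout IECs the order on this scale was Abcc3 (49.4 CPM per kb), Nr1h4 (41.2) and Slc51b (32.8), whose ranges overlapped between neighbours. Fabp6 followed at 9.60 CPM per kb, apart from its neighbours, then Slc10a2 (4.46) and Slc51a (3.23), whose ranges overlapped. Abcc2 (0.101), Fgf15 (0.0896) and Nr0b2 (0) were lowest, with ranges that overlapped between neighbours in this order. In DDKO IECs the order was Fabp6 (69.1), Slc51b (64.7), Nr1h4 (51.8), Slc10a2 (49.2) and Abcc3 (36.3 CPM per kb), with overlapping ranges between neighbours throughout. Slc51a followed at 16.4 CPM per kb, apart from its neighbours in this order. Its range (9.58 to 22.5) overlapped those of Fabp6 (from 12.3) and Slc10a2 (from 18.45), however. Fgf15 (3.13), Abcc2 (1.45) and Nr0b2 (0.238) were again lowest, with ranges that overlapped between neighbours in this order. Thus the colonic exporter Abcc3 had the highest mean in Smad4-knockout and the fifth in DDKO.

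The libraries were ordered alike by several of the genes. In Smad4-knockout, Slc10a2, Fabp6, Slc51a, Fgf15 and Nr1h4 were all lowest in replicate 1 and highest in replicate 2, with replicate 4 below replicate 3, an order shared by 5.26% of all tested genes. For Fabp6 this order rested on 4.43 to 4.69 CPM, a 1.06-fold spread, and for Fgf15 on 0 to 14 counts. In DDKO, Fabp6, Slc51a, Nr1h4 and Abcc2 shared an order, with replicate 5 lowest and replicate 4 highest, that 0.603% of tested genes had. Slc10a2 and Slc51b shared another DDKO order (0.815% of tested genes), with replicate 5 lowest and replicate 2 highest. Abcc3 was highest in DDKO replicate 5, which was lowest in both of these orders, and lowest in replicate 1. Fgf15 was lowest in replicate 1 and highest in replicate 4. All genes were read from the same libraries, so that these orders are descriptions only.

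Of 17 small intestinal enterocyte markers, some of them proximal and some general, 15 were tested, 9 rose and none fell, beside 6.76% and 6.54% of all tested genes. This list and those below were chosen with earlier results of these data known, so that such counts are descriptions only. Apoa1 and Fabp1 (1, 3, 1 and 0 counts in Smad4-knockout) passed the filter on low counts through DDKO alone. With at least 10 counts in every library, 11 were tested and 5 rose. Sucrase-isomaltase (Sis), a brush border disaccharidase, went from 2.78 ± 3.23 to 155 ± 85.5 CPM (log2 fold change 5.75, adjusted p = 0.000985). Mttp, needed for chylomicron assembly, went from 4.41 ± 1.39 to 102 ± 45.4 CPM (4.53, adjusted p = 0.000285), and the peptidase Enpep from 1.16 ± 0.624 to 65.4 ± 37.6 CPM (5.84, adjusted p = 0.000873). Fabp1, Cubn, Rbp2, Anpep and Apoa1 were among the others that rose, although Apoa1, Rbp2 and Anpep lost their call without one or another library, each of them without Smad4-knockout replicate 3. Apoa1 and Apoa4 had no counts in any Smad4-knockout library, and lactase (Lct) had at most 7 counts in any library. Fabp2, which encodes a fatty acid binding protein, had a log2 fold change of 0.09 (adjusted p = 0.720).

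The summed level of the 17 markers was 671 to 781 CPM in Smad4-knockout and 882 to 1917 CPM in DDKO libraries. Within DDKO it was lowest in replicate 5, followed by replicates 3, 1, 4 and 2, which is the order of Slc10a2 and Slc51b. Markers that were not called made up a large part of this sum, among them Fabp2 at 214 CPM in Smad4-knockout and 228 CPM in DDKO. Of the 10 colonocyte markers, 3 fell, beside 6.54% of all tested genes, and none rose. Among those that fell were Slc37a2 (77.2 ± 33.1 to 27.3 ± 14.1 CPM, adjusted p = 0.0312) and Hoxb13, a posterior homeobox gene (173 ± 35.3 to 101 ± 28.5 CPM, adjusted p = 0.0264). The count of those that fell was 1 without Smad4-knockout replicate 1, 3 or 4 or DDKO replicate 4, 0 with the Y-linked term and 6 in the libraries without Y-linked counts. The summed level of the 10 markers was 5110 to 6425 CPM in Smad4-knockout and 2596 to 7056 CPM in DDKO libraries. Of the 10, 9 were fitted lower and 1, the carbonic anhydrase gene Car1, was fitted higher (2379 CPM in Smad4-knockout and 2498 CPM in DDKO, adjusted p = 0.929), with a median log2 fold change of -0.46. Car1 made up a large part of the summed level. Of 7 Paneth cell markers 3 were tested, and the defensin gene Defa24 alone was called (log2 fold change 3.15, adjusted p = 0.0262; lost without Smad4-knockout replicate 1, 2 or 3 or DDKO replicate 4, at up to 0.0738, with a log2 fold change of 2.54 without the last), while Lyz1 was at 48.9 ± 35.8 and 15.3 ± 8.60 CPM (adjusted p = 0.0827). No epithelial, leukocyte or stromal marker was called, out of 6, 6 and 4 tested. The part of these cell types in the levels of the 9 genes was not tested.

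**Figure D4:**
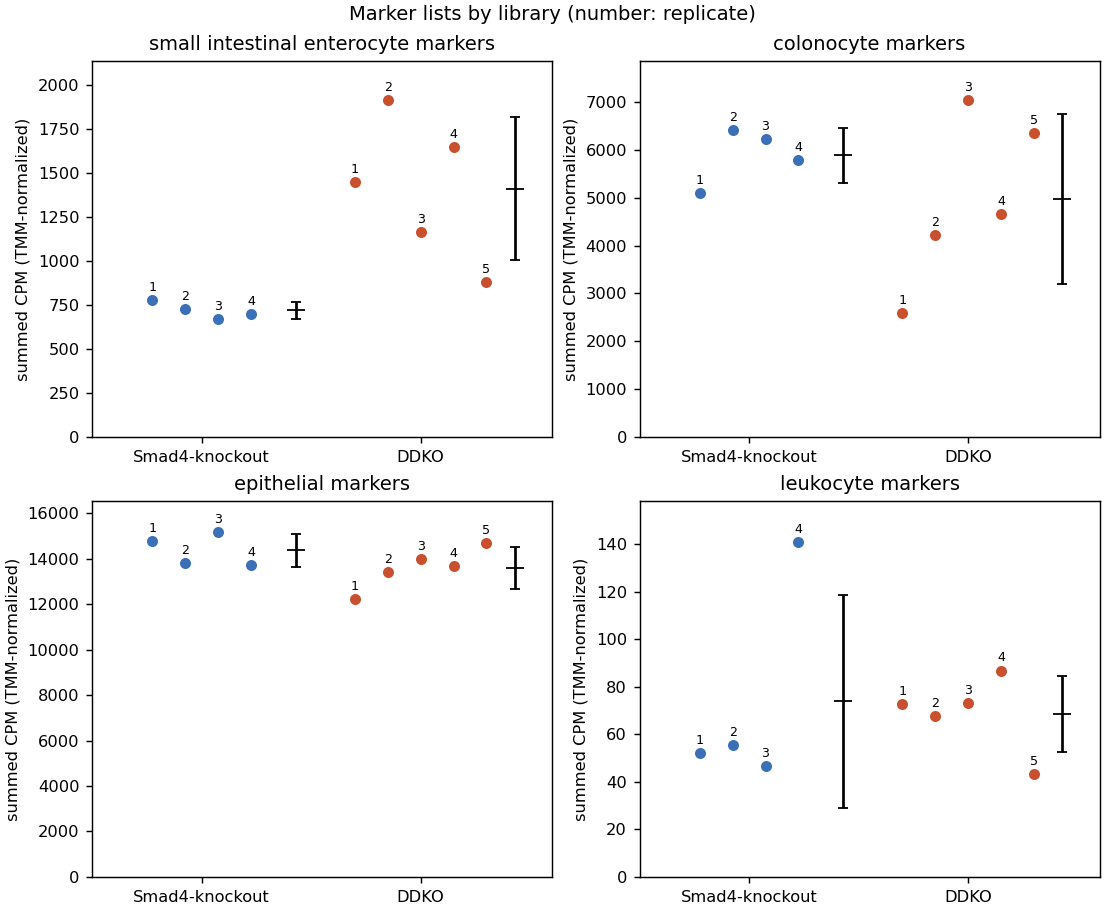
Summed TMM-normalized CPM (y axis, from 0) of 4 marker lists in each library, numbered by replicate, for Smad4-knockout (blue) and DDKO (red), with group mean and SD in black. The small intestinal enterocyte markers sum to 671 to 781 CPM in Smad4-knockout and 882 to 1917 CPM in DDKO, without overlap, while the other lists overlap.

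Beyond the 9 genes, 6 lists with 68 further genes of bile acid handling were examined. Of these, 48 were tested, of which 9 were higher and 3 lower in DDKO, beside 6.76% and 6.54% of all tested genes. The lower count is thus near the background share. The median log2 fold change of the 48 was 0.05, beside -0.0006 over all tested genes. The hepatic genes Cyp7a1 and Cyp8b1, which encode key enzymes of bile acid synthesis, and Slc10a1, the hepatic uptake carrier, had no counts in any library. Of the 12 genes called, Acox2, Malrd1, Ang and Cyp3a25 kept their call without each of the 9 libraries, and Gata4 in the 5 such fits in which it was tested. The other 7 lost it without 1 or more libraries, all of them without Smad4-knockout replicate 3, where 5 genes were called higher and 0 lower.

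Among genes of synthesis and conjugation, 1 of 11 tested rose and 2 fell, beside 6.76% and 6.54% of all tested genes. Acox2, a peroxisomal oxidase that shortens the bile acid side chain, was at 0.321, 0.773, 0.737 and 1.03 CPM in Smad4-knockout and 8.20, 6.90, 9.37, 8.42 and 6.75 CPM in DDKO. It was thus even within DDKO, and replicate 5 was close to the others (log2 fold change 3.47 ± 0.29 SE, adjusted p = 7.15e-05). The sterol 27-hydroxylase gene Cyp27a1 fell (log2 fold change -0.85, adjusted p = 0.0297), as did Hsd3b7, an early enzyme of the pathway (-0.58, adjusted p = 0.0169).

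Among 8 tested carriers other than the members, 2 rose and none fell, and among 8 tested receptors and partners 1 rose and none fell, beside 6.76% and 6.54% of all tested genes. Of the carriers, Slco2a1, a prostaglandin carrier, rose (log2 fold change 0.85, adjusted p = 0.0190), and so did the drug exporter gene Abcb1b (0.860 ± 0.505 to 2.40 ± 0.724 CPM, adjusted p = 0.0318). The receptor partner called was Malrd1, whose product is known to favour FGF15 output by ileal cells. It was at 3.98 to 9.39 CPM in Smad4-knockout and 24.4 to 51.9 CPM in DDKO, without overlap (log2 fold change 2.52 ± 0.30 SE, adjusted p = 0.000907). The FGF15 receptor Fgfr4 (log2 fold change -0.39, adjusted p = 0.177) and its coreceptor Klb (-1.72, adjusted p = 0.0927) were not called. Klb passed in 4 of 18 alternatives, and its log2 fold change was -2.47 without DDKO replicate 5 (adjusted p = 0.0136) and -1.21 without Smad4-knockout replicate 1. The membrane bile acid receptor Gpbar1 had at most 3 counts in any library.

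Of 11 transcription factors of ileal bile acid genes, Gata4 and Nr3c1 were higher and none was lower, beside 6.76% and 6.54% of all tested genes. Gata4, a factor of the proximal small intestine that is known to restrain Slc10a2 there, was at 0.159 to 0.321 CPM in Smad4-knockout and 0.498 to 1.97 CPM in DDKO (log2 fold change 2.20, adjusted p = 0.0144), low in both groups. It had 2 to 5 counts in Smad4-knockout and 7 to 25 in DDKO libraries. Gata4 thus passed the filter on low counts through DDKO alone, and it was tested in 13 of 19 alternatives. The glucocorticoid receptor gene Nr3c1 was 0.36 higher on the log2 scale (adjusted p = 0.0285). Hnf4a (log2 fold change 0.05, adjusted p = 0.779) and Gata6 (0.13, adjusted p = 0.268) were not called, and neither was Cdx2 (adjusted p = 0.835), whose difference of 0.04 changed sign with the libraries and covariates used.

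Other genes described as FXR targets gave 1 call in each direction out of 8 tested, beside 6.76% of all tested genes called higher and 6.54% lower. Ang, a secreted ribonuclease, rose (log2 fold change 1.90, adjusted p = 0.00748) and Il18, an epithelial cytokine, fell (-0.96, adjusted p = 0.0466). The median log2 fold change of the list was -0.26. Of 5 genes of xenobiotic and bile acid detoxification, Cyp3a13 (log2 fold change 0.94, adjusted p = 0.0330) and Cyp3a25 (5.54, adjusted p = 0.00522), both cytochrome P450 genes, were the members of this list with enough counts for the main test, and both rose. Cyp3a25 was at 0 to 1.55 CPM in Smad4-knockout and 8.46, 19.0, 36.4, 59.6 and 5.04 CPM in DDKO, again with the highest levels in DDKO replicates 3 and 4. Without Smad4-knockout replicate 2 its log2 fold change was 7.09, and that of Sis was 6.93.

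**Figure D5:**
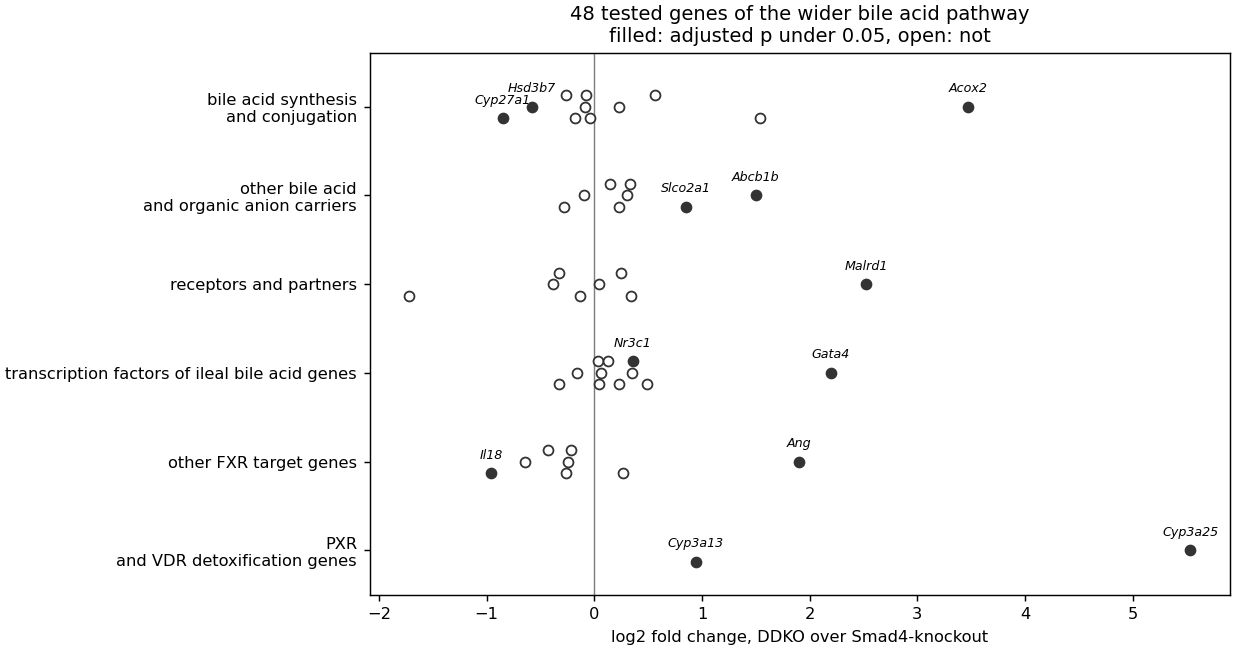
Fitted log2 fold change, DDKO over Smad4-knockout (x axis), of the 48 tested genes of the wider bile acid pathway, 1 point a gene, in rows by list; filled points have an adjusted p under 0.05 and carry their symbol, open points do not. Of the points, 9 are filled on the higher side and 3 on the lower, and the rest lie mostly near 0.

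The genes whose pattern over the 9 libraries was most like that of each member were found by the root mean square difference of log2 CPM, each gene centred on its own mean, among 13692 genes. These genes were picked for likeness and carry no test. Slc10a2 was nearest to Ggt1 (0.366 on the log2 scale), Ms4a18 (0.496) and Lipn (0.511), and Slc51a to Ms4a18 (0.267), Malrd1 (0.304) and Gm3776 (0.354). The median distance of all candidates was 1.88 from Slc10a2 and 1.43 from Slc51a. Fabp6 was nearest to Ugt8a (0.492), 2010106E10Rik (0.495) and Ccr9 (0.516), and Abcc2 to Gm10768 (0.301), Syt14 (0.454) and Gm27162 (0.503). Fgf15 was nearest to Cyp3a25 (0.705), Abca8b (0.708) and Reg3b (0.717). Slc51b was nearest to Gm34084 (0.134), Ttc19 (0.136) and Ino80dos (0.153), and Nr1h4 to Prss30 (0.132), Cldn2 (0.139) and Lysmd4 (0.165). Abcc3 lay closest to Slc35a2 (0.0504), Tmem63a (0.0603) and Epb41l1 (0.0621). Among the members themselves, Slc10a2 and Abcc2 were nearest to each other (0.550). Slc51b and Nr1h4 were each other's nearest member too (0.402), but at about the median distance of all candidates from Nr1h4 (0.419).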

How the data were processed

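RNA-seq was analysed from colon IECs of 4 Smad4-knockout and 5 DDKO mice, grouped by genotype label. The authors deposited raw counts per gene symbol, without normalization. The submitters' processing notes name HISAT2 2.0 and mm10; the counting program, its annotation and its use of strand are not given in the sources used here. Reads of near-identical or overlapping genes could be split or shared. The table held 46095 symbols, 27 of them turned into dates. No 2 libraries of a group agreed within sampling noise (lowest chi-square per gene 9.92), so all were kept as separate replicates.

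Genes were kept with filterByExpr by group (14593 genes), scaled with TMM and tested over all 9 libraries with the quasi-likelihood test of edgeR 4.0.16 in R 4.3.3, with Benjamini-Hochberg adjustment over all tested genes and a threshold of 0.05. The filter also keeps a gene that reaches the needed counts in a single group. CPM use the TMM-scaled library size. SE was taken as the log2 fold change, without its sign, divided by the square root of F. Log2 ratios of counts (0.5 added) were compared with exact permutation tests over samples. Because the labels do not say how mice were housed or paired, p-values measure the spread between these libraries. The code was tested on simulated counts before use.

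The 9 genes and all lists were chosen with earlier results of these data known. The genes named are the 9 members, list genes with an adjusted p under 0.05, a few regulators and receptors fixed by name, and for each tested member the 3 nearest genes whose mean reached 1 CPM (log2 CPM with a prior count of 2). Apart from these, Fabp2, Car1, Epcam, Lyz1, Lct, Apoa4, Cyp7a1, Cyp8b1, Slc10a1 and Xist were named after their values were seen. Motifs were searched in RefSeq promoter windows of GRCm38.p6, the assembly of mm10, and exon lengths and overlaps come from a GENCODE annotation of GRCm38. Alternatives were DESeq2 1.42.0, voom of limma 3.58.1 with quality weights, robust dispersion, other scalings and filters, omission of single libraries, a block for the replicate number, a term for Y-linked counts, and libraries without such counts. Some list genes and motifs are not reported here. RT-qPCR and ChIP-seq data were not analysed here.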

Additional observations from a re-analysis of the deposited data

How the results depend on the processing

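The count of members called higher stayed at 5 or 6 under all alternatives and without any library. Slc10a2, Fabp6, Slc51a, Slc51b and Abcc2 kept their call and direction in all 19 alternatives. Fgf15 did so in 17 of 18 (adjusted p = 0.0524 without Smad4-knockout replicate 3) and could not be tested with at least 10 counts in every library. The lower call, Abcc3, made in 14 of 19 alternatives, went to 0 with the Y-linked term and with the replicate block, and ranged from 0 to 1 as each library was left out; the causes were not tested. Other pathway genes higher in DDKO numbered 14 in the libraries without Y-linked counts and 5 to 11 without each library in turn (5 without Smad4-knockout replicate 3). Those lower numbered 1 with the Y-linked term, 6 in the libraries without Y-linked counts, and 0 to 5 as each was left out (0 without Smad4-knockout replicate 3, 1 without replicates 1, 2 or 4, and 5 without DDKO replicate 5). Small intestinal enterocyte markers higher numbered 5 with at least 10 counts in every library, where fewer markers were tested, and 6 to 11 without each library. Colonocyte markers lower numbered 5 with voom, 0 with the Y-linked term, 6 in the libraries without Y-linked counts and 1 to 4 without each library. Replicate numbers did not pair the libraries (same-number correlations -0.104 to 0.0878, and 0 of 8 libraries nearest to their own number). With the replicate block on 8 libraries, 5 pathway genes were lower, and the adjusted p of Abcc3 was 0.0505. With the replicate block the Slc51a to Slc51b difference was 1.63 and the Abcc2 to Abcc3 difference 4.53, each at an exact p of 0.125, the smallest that pairing allows. In the libraries without Y-linked counts they were 1.82 (exact p = 0.133) and 4.51 (exact p = 0.0667, the smallest there). Without each library in turn the ratio differences were 1.10 to 1.87, 3.92 to 4.53 and, for Slc10a2 to Fabp6, 0.69 to 1.30. Uncalled log2 fold changes changed sign for Cdx2, to -0.0069 with the Y-linked term, -0.0028 in the libraries without Y-linked counts and -0.045 to 0.091 without each library. For Smad4 they became -0.18 with voom, -0.71 with the Y-linked term, -0.13 with the replicate block, -0.70 without Y-linked counts, and -0.11 to 0.37 without each library. Over all genes, 986 were higher and 955 lower; the lowest counts came without Smad4-knockout replicate 3 (455 and 392).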
